A study of Mus musculus with 5 samples.

Results

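The aminoacyl-tRNA synthetases are the enzymes that load each tRNA with its amino acid. The set described here holds 36 genes, chosen by name: 20 enzymes or subunits of the cytosol and 16 of the mitochondrion, whose gene names end in 2. All 36 were found among the 23997 gene names of the table, and all 36 passed the bound of a mean of 0.1 FPKM over the 5 libraries. The names were matched to the table as spelled there, so that Aars stands for the cytosolic alanine enzyme and Aars2 for the mitochondrial one.

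RNA was sequenced from whole cerebral cortices of C57BL/6 mouse embryos at embryonic day 16 (E16). The Uhrf1 conditional knockout (cKO) group had 2 libraries, MG18 and MG19, with the genotype Uhrf1 -/-. The control group had 3 libraries, MG15, MG16 and MG17, with the genotype Uhrf1 +/-. Both groups carried the Emx1-driven Cre, which acts in the dorsal telencephalon and removes a floxed exon of Uhrf1, a protein that keeps up DNA methylation when DNA is copied. Controls therefore also lacked Uhrf1 on 1 allele, and cells that entered the cortex from elsewhere kept it. The libraries of a group are described as biological replicates, and nothing in the sources used here says whether they came from separate litters.

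Protein synthesis needs a charged tRNA for each amino acid, and each synthetase recognises its amino acid and its tRNAs. In the cytosol several of these enzymes are held in a multisynthetase complex by scaffold proteins, and a separate set, encoded in the nucleus, is imported into mitochondria. When charged tRNAs run short, or under other stresses that lead to phosphorylation of the initiation factor eIF2, the transcription factor ATF4 is translated more and switches on genes for amino acid uptake and synthesis, and many cytosolic synthetases. Synthetases of the mitochondrion are not usually counted among the ATF4 targets. In people, inherited faults in many synthetases, RARS2 and VARS2 among them, cause disorders of the developing brain.

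The regulatory sequence behind the 2 classes can be read in their promoters. ATF4 binds with C/EBP partners at an element searched here as TGATGNAA on both strands (TTNCATCA when read from the other strand), and NRF1, a regulator of many nuclear genes for mitochondrial proteins, binds a core searched as GCGCATGC on both strands (GCATGCGC from the other strand). RefSeq promoters of GRCm38.p6, which run from 250 bases before to 50 bases after the annotated start, were matched for 27 of the 36 genes. The C/EBP-ATF element was found in 5 of 13 cytosolic genes with a promoter and in 0 of 15 promoters of 14 mitochondrial genes, against 3.97% of all 32851 promoters. The NRF1 core was found in 0 of the 13 cytosolic genes and in 3 of the 14 mitochondrial genes, against 2.71% of all promoters. A match is a description of the letters and not proof of a bound site, and a promoter with no match says only that these letters are not in this window. The 2 patterns did not share a base in any of these promoters.

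The 5 cytosolic genes with a match (Aars, Gars, Iars, Tars and Yars) are all counted among the ATF4 targets. They are shown because they are set beside the other ATF4 targets further on. Each line runs 5′ to 3′ on the strand of the gene and the element is in capitals. The element of Aars began 112 bases before the annotated start (chr8:111033700-111033767, plus strand), with another copy at base 10 after the start, that of Gars 30 bases before (chr6:55037941-55038008, plus strand) and that of Tars 15 bases before (chr15:11399636-11399703, minus strand). In Iars it began at base 8 after the start (chr13:49682107-49682159, plus strand) and in Yars at base 4 (chr4:129189876-129189932, plus strand).
Aars: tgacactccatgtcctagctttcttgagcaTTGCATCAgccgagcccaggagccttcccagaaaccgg
Gars: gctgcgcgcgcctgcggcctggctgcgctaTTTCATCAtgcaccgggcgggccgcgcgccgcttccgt
Tars: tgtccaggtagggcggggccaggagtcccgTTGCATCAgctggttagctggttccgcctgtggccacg
Iars: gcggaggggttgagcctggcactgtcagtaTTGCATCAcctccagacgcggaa
Yars: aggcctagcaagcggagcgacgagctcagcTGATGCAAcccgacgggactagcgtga

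The same element stood in 8 of the 23 other ATF4 targets that had a promoter. Of these, 3 are shown for comparison: Asns, which makes asparagine, Chac1, which breaks down glutathione, and Slc7a11, which imports cystine. All 3 lay above all controls in both cKO libraries (14.5% of all genes did so). Of those that hold the element and are not shown, Atf3, Nupr1 and Trib3 also lay above all controls, whereas Pycr1 and Vldlr overlapped. The element began 23 bases before the start of Asns (chr6:7693195-7693262, minus strand), 193 bases before that of Chac1 (chr2:119351019-119351086, plus strand) and 47 bases before that of Slc7a11 (chr3:50443623-50443690, minus strand), which holds another copy 19 bases further upstream on the opposite strand.
Asns: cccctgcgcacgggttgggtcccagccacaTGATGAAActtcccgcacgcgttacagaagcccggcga
Chac1: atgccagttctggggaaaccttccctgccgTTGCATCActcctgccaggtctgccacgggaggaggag
Slc7a11: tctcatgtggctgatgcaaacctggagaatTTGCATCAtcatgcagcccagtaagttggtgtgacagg

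The NRF1 core was found for the mitochondrial enzymes for arginine, valine and tryptophan, and these 3 genes are shown. Both cKO libraries lay below all controls for Rars2 and, narrowly, for Vars2 (16.3% of all genes did so), whereas Wars2 overlapped. Iars2 and Nars2, which are not among the genes with a match, also lay below all controls. A link between the core and the level was not tested. The core began 51 bases before the start of Rars2 (chr4:34614876-34614943, plus strand) and 64 bases before that of Wars2 (chr3:99140996-99141063, plus strand). In Vars2 it began 20 bases before the start (chr17:35667575-35667642, minus strand), with another copy 46 bases before the start.
Rars2: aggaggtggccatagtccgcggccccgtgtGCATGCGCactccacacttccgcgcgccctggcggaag
Vars2: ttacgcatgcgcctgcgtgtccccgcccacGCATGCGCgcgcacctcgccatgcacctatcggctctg
Wars2: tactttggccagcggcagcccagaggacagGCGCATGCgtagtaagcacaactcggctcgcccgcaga

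As a check of the labels, Uhrf1 was measured at 2.75 and 2.61 FPKM (fragment number divided by transcript length and by the mapped fragments of the library) in the cKO libraries, against 7.24, 13.2 and 13.0 FPKM in the controls. The groups did not overlap, and the change in log2 units was -1.97 (SE 0.28) with an adjusted p of 0.00770 from limma. Without cKO MG18 the adjusted p was 0.277, and without cKO MG19 it was 0.312. Throughout, a fold change is the cKO mean less the control mean of log2(FPKM + 0.1), from limma fitted on 14697 genes, with p-values adjusted after Benjamini and Hochberg over all of them. The exact permutation test of a single gene cannot go below p = 0.1 with 2 libraries against 3.

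Facts of the tissue bear on every value below. Depth could only be estimated roughly from the steps between low values, at 8100000 to 9700000 fragments in the cKO libraries and 15000000 to 41000000 in the controls, so that no counting intervals are given. The share of all FPKM that fell on small RNAs was 39.3 and 56.4% in cKO libraries, against 64.8 to 88.4% in controls. The genes tested summed to 542300 and 628400 FPKM in the cKO, against 412400 to 466300 FPKM in controls. Marker genes are counted here at an unadjusted p under 0.05, a rule that 6.36% of all genes tested met as higher and 5.17% as lower. Of 7 markers of cortical progenitors 4 lay lower at an unadjusted p under 0.05 (median log2 fold change -0.52, summed level 1114 to 1345 FPKM in the cKO, against 1436 to 2065 FPKM in controls), while the 7 markers of projection neurons had a median of -0.01 and 0 called genes (851 to 902 FPKM in the cKO, against 1005 to 1238 FPKM in controls). Of 9 markers of the ventral telencephalon and interneurons 5 lay higher (median 0.63, 73.8 to 94.1 FPKM in the cKO, against 56.9 to 62.0 FPKM), as did 3 of 6 of microglia (median 0.58, 34.5 to 34.9 FPKM, against 19.7 to 32.5 FPKM). For endothelium 1 of 6 lay higher (84.2 to 91.6 FPKM in the cKO, against 72.4 to 105.5 FPKM), for red blood cells 1 of 6 higher and 1 lower (444 to 507 FPKM, against 584 to 826 FPKM), and for meninges and choroid plexus 2 of 6 higher and 1 lower (10.7 to 10.8 FPKM, against 4.74 to 6.30 FPKM). The log2 fold changes of the red blood cell markers ran from -0.74 to 4.55, with a median of -0.02. Of the 47 markers, 1 was listed at 0 in a library (Ttr, in 1 cKO library). In whole tissue, fewer cells of a type and less RNA per cell cannot be told apart, and the part of these shifts in the results below was not tested.

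Every synthetase was expressed in every library. Values ranged from 1.02 FPKM (Lars2 in control MG15) to 98.7 FPKM (Gars in cKO MG19). The cytosolic enzymes had a median of 43.1 FPKM over the 5 libraries, 4.37 times the median of 9.86 FPKM of the mitochondrial enzymes. FPKM is a value per transcript length, so levels of different genes can be set side by side.

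**Figure D1:**
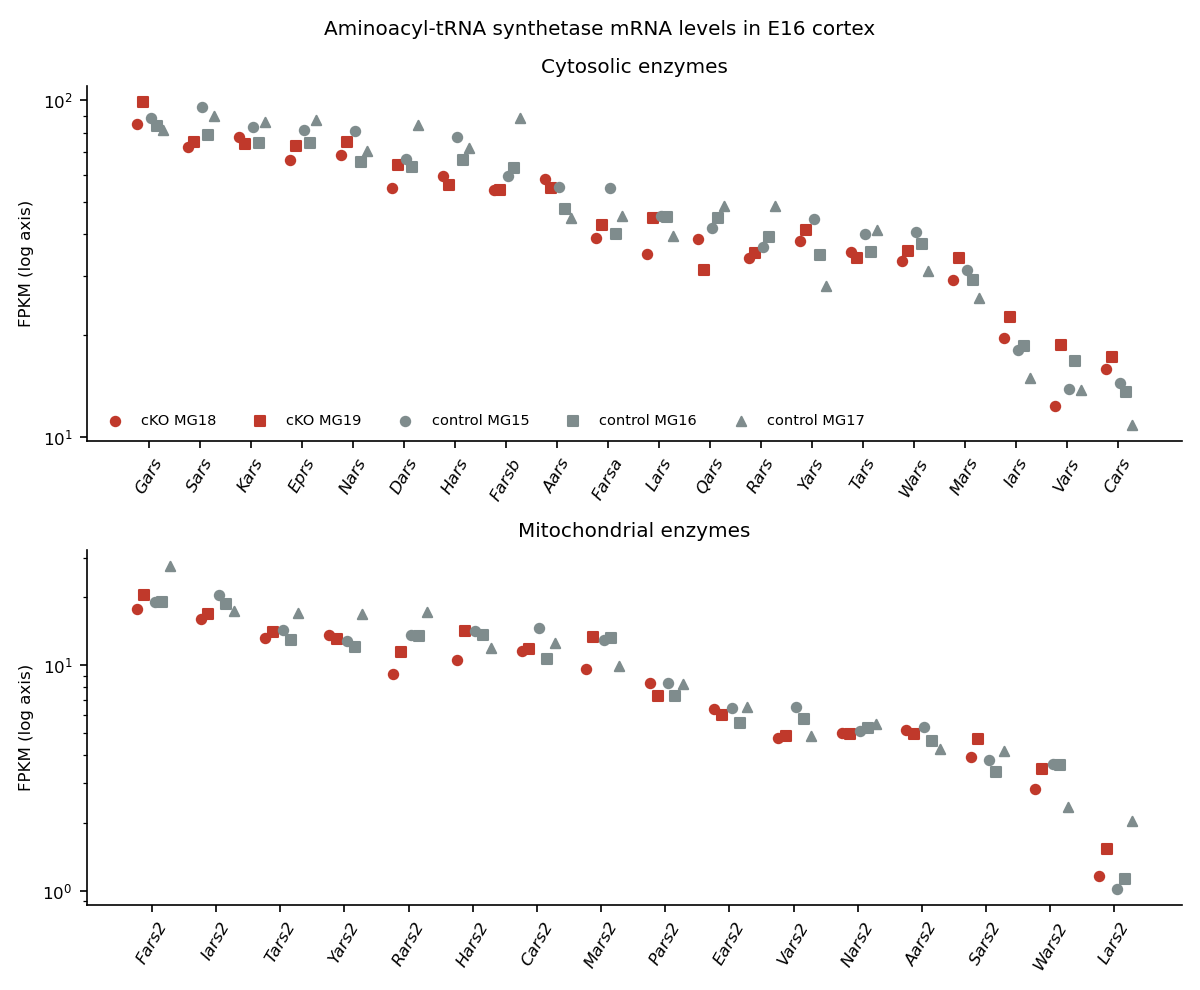
FPKM of each synthetase in each library on a log axis, with the cytosolic enzymes above and the mitochondrial enzymes below, ordered by mean level; red marks are the 2 cKO libraries and grey marks the 3 controls. The red and grey marks of most genes interleave. Values run from 1.02 FPKM for Lars2 to 98.7 FPKM for Gars.

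The most abundant cytosolic enzyme was Gars, which charges glycine tRNAs and from the same gene also supplies the mitochondrion. It stood at 84.9 and 98.7 FPKM in cKO cortices, against 88.7, 83.9 and 81.3 FPKM in controls. Sars, for serine, followed at 72.8 and 75.02 FPKM in cKO cortices, against 95.2, 78.6 and 90.1 FPKM in controls, where both cKO libraries lay below all controls. Kars, for lysine, which likewise serves both compartments, overlapped between groups, with 77.6 and 74.2 FPKM in the cKO, against 83.1, 74.7 and 86.1 FPKM in controls. The least abundant were Cars, Vars and Iars. Vars, for valine, had 12.4 and 18.7 FPKM in the cKO, against 13.9, 16.8 and 13.8 FPKM in controls, so its 2 cKO libraries bracketed the controls.

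In the mitochondrial set Fars2, for phenylalanine, was the most abundant, with 17.8 and 20.5 FPKM in the cKO, against 19.2, 19.1 and 27.6 FPKM in controls. Iars2, for isoleucine, had 15.99 and 16.9 FPKM in the cKO, against 20.5, 18.8 and 17.5 FPKM in controls, and did not overlap. Tars2, for threonine, had 13.2 and 14.0 FPKM in the cKO, against 14.4, 12.9 and 17.0 FPKM, and did overlap. At the low end stood Sars2 (serine), Wars2 (tryptophan) and Lars2 (leucine). Lars2 had 1.17 and 1.53 FPKM in the cKO, against 1.02, 1.13 and 2.03 FPKM in controls, and Wars2 had 2.83 and 3.47 FPKM, against 3.64, 3.62 and 2.35 FPKM. For both, control MG17 was at an end of the range, so that the spread among controls was wider than the difference between groups.

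The next question was whether synthetase mRNA differed between cKO and control cortex. At an adjusted p under 0.05, 0 of the 36 genes were higher (1.1% of all genes tested) and 0 were lower (0.163%). The lowest adjusted p of a member was 0.359, for Rars2 (limma). At the thresholds of the study, an unadjusted p under 0.05 with a change over 2-fold, 0 were higher (2.88% of all genes) and 0 were lower (1.16%). At any fold and an unadjusted p under 0.05, 0 were higher (6.36% of all genes) and 1 was lower (5.17%). That count of 1 became 0 without control MG17, where Rars2 had an unadjusted p of 0.0512 (limma). Without cKO MG18 Rars2 also lost its call (unadjusted p = 0.175, limma), and the count stayed at 1 through Qars (unadjusted p = 0.0328, limma). The 95% intervals of all 36 log2 fold changes lay inside a 2-fold change either way, between -0.94 (the low end for Rars2) and 0.80 (the high end for Lars2).

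The changes can be set beside the spread of the controls. The median size of a log2 fold change over the 36 genes was 0.15, against a median range of 0.31 among the 3 controls (over all genes tested, 0.22 against 0.43). The change exceeded the range among controls for 2 of 20 cytosolic and 1 of 16 mitochondrial genes (25.4% of all genes tested). The 20 cytosolic genes had a median log2 fold change of -0.11, with 7 above and 13 below 0 (10 and 10 after quantile normalization), and the 16 mitochondrial genes a median of -0.08, with 4 above and 12 below 0 (2 and 14 after quantile normalization). Over all genes tested the median was -0.02, and over the 12084 genes that averaged 1 FPKM or more it was -0.04. Both cKO libraries lay above all controls for 2 of the 36 genes (14.5% of all genes did so) and below all controls for 11 of them (16.3% of all genes did so).

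**Figure D2:**
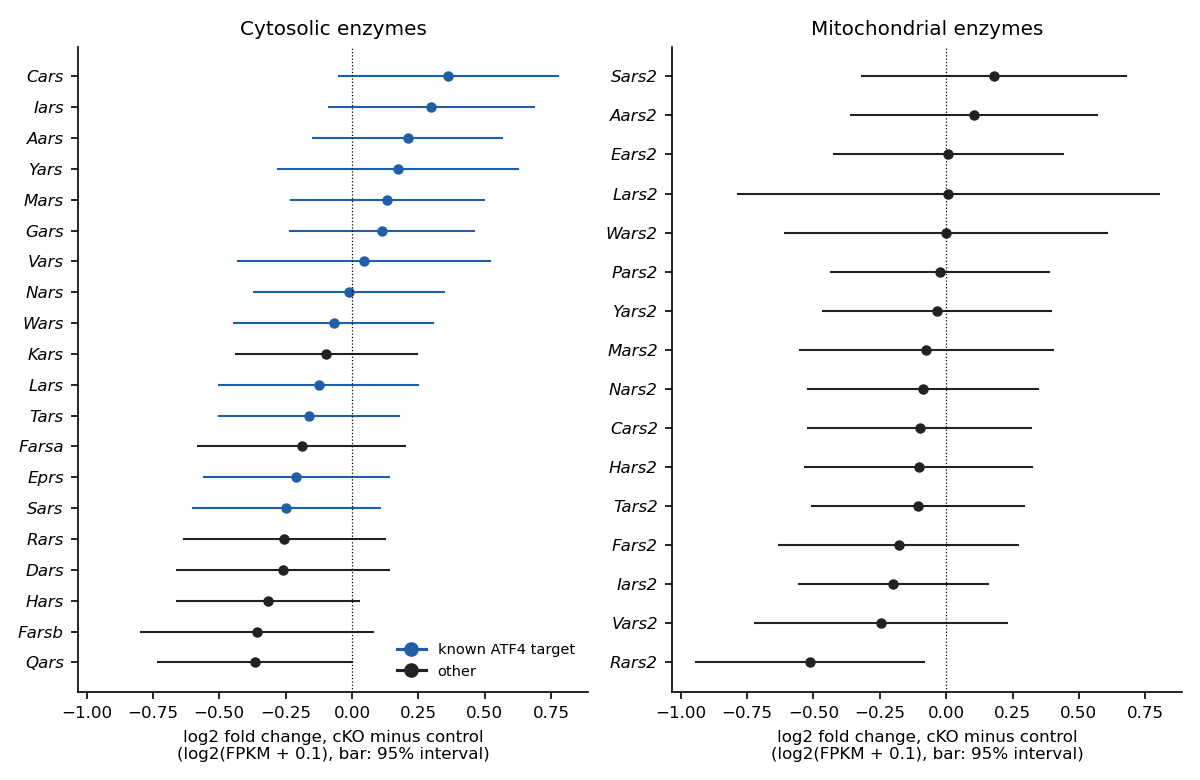
Log2 fold change of each synthetase, cKO less control, in log2(FPKM + 0.1), with its 95% interval from limma; cytosolic enzymes are on the left, with those counted as ATF4 targets in blue, and mitochondrial enzymes on the right. All intervals cover 0 except that of Rars2, at -0.51.

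Rars2, the mitochondrial arginine enzyme (chromosome 4, 34614957 to 34660167 of GRCm38), was the member with the lowest p. It had 9.15 and 11.4 FPKM in cKO cortices, against 13.6, 13.4 and 17.1 FPKM in controls. Both cKO libraries lay below all controls, and the cKO mean of 10.3 ± 1.60 FPKM (SD, n = 2) was 69.8% of the control mean of 14.7 ± 2.10 FPKM (SD, n = 3). The log2 fold change was -0.51 (SE 0.19, unadjusted p = 0.0244, adjusted p = 0.359, limma), and it lay between -0.67 and -0.36 when each library was left out in turn. The value therefore kept its sign, while the adjusted p did not pass the threshold in any setting.

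The remaining mitochondrial enzymes had smaller differences. Vars2, for valine, had 4.75 and 4.83 FPKM in the cKO, against 6.55, 5.80 and 4.86 FPKM in controls (log2 fold change -0.25, adjusted p = 0.670, limma), and the cKO libraries were the lowest by a narrow margin. The difference for Iars2 was -0.20 (adjusted p = 0.650, limma). Nars2, for asparagine, was the other gene with no overlap, at 5.01 and 4.96 FPKM in the cKO, against 5.11, 5.27 and 5.51 FPKM. Sars2 had 3.92 and 4.68 FPKM in the cKO, against 3.804, 3.36 and 4.18 FPKM in controls, Hars2, for histidine, had 10.6 and 14.2 FPKM, against 14.1, 13.6 and 11.9 FPKM, and Cars2, for cysteine, had 11.5 and 11.8 FPKM, against 14.6, 10.7 and 12.6 FPKM. The groups of all 3 overlapped. The other mitochondrial genes (Aars2, Ears2, Mars2, Pars2 and Yars2) overlapped as well, with log2 fold changes between -0.07 and 0.11.

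Among the cytosolic enzymes the lowest log2 fold changes belonged to Qars, Farsb, Hars, Dars and Rars, followed by Sars at -0.25. Sars, Eprs and, narrowly, Tars, which are counted as ATF4 targets, also lay below all controls (16.3% of all genes did so). Qars, for glutamine (chromosome 9, 108508005 to 108515941), had 38.7 and 31.4 FPKM in the cKO, against 41.6, 44.8 and 48.6 FPKM in controls. Both cKO libraries lay below all controls, with a log2 fold change of -0.37 (SE 0.16, unadjusted p = 0.0503, adjusted p = 0.434, limma). Hars, for histidine, had 59.6 and 55.9 FPKM in the cKO, against 77.8, 66.4 and 71.9 FPKM in controls (log2 fold change -0.32, adjusted p = 0.462, limma). It too did not overlap.

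Farsb, the beta subunit of the phenylalanine enzyme, had 54.0 FPKM in both cKO libraries, against 59.4, 63.1 and 88.5 FPKM in controls (log2 fold change -0.36, adjusted p = 0.510, limma). The controls alone spanned a wider range than the gap between groups. Its alpha subunit, Farsa, overlapped, with 38.9 and 42.5 FPKM in the cKO, against 54.7, 40.1 and 45.3 FPKM in controls. Rars, for arginine, had 33.9 and 35.1 FPKM in the cKO, against 36.6, 39.3 and 48.4 FPKM (log2 fold change -0.25, adjusted p = 0.584, limma), with no overlap. Dars, for aspartate, had 54.9 and 64.2 FPKM in the cKO, against 67.1, 63.2 and 84.6 FPKM (log2 fold change -0.26, adjusted p = 0.596, limma), with overlap. For Farsb, Rars and Dars control MG17 was the highest of the 5 libraries.

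Both cKO libraries lay above all controls for 2 of the 36 enzymes (14.5% of all genes did so). Both enzymes are among the 13 counted as ATF4 targets, of which 3 (Eprs, Sars and, narrowly, Tars) lay below all controls (16.3% of all genes did so). Cars, for cysteine (chromosome 7, 143557230 to 143600090), had 15.9 and 17.3 FPKM in the cKO, against 14.4, 13.6 and 10.8 FPKM in controls. Its log2 fold change was 0.36 (SE 0.18, unadjusted p = 0.0770, adjusted p = 0.482, limma). Iars, for isoleucine (chromosome 13, 49682130 to 49734267), had 19.6 and 22.6 FPKM in the cKO, against 18.1, 18.6 and 15.0 FPKM in controls (0.30 in log2 units, SE 0.17, adjusted p = 0.536, limma). The cKO means were 1.28 and 1.23 times the control means, and neither gene passed the threshold.

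**Figure D3:**
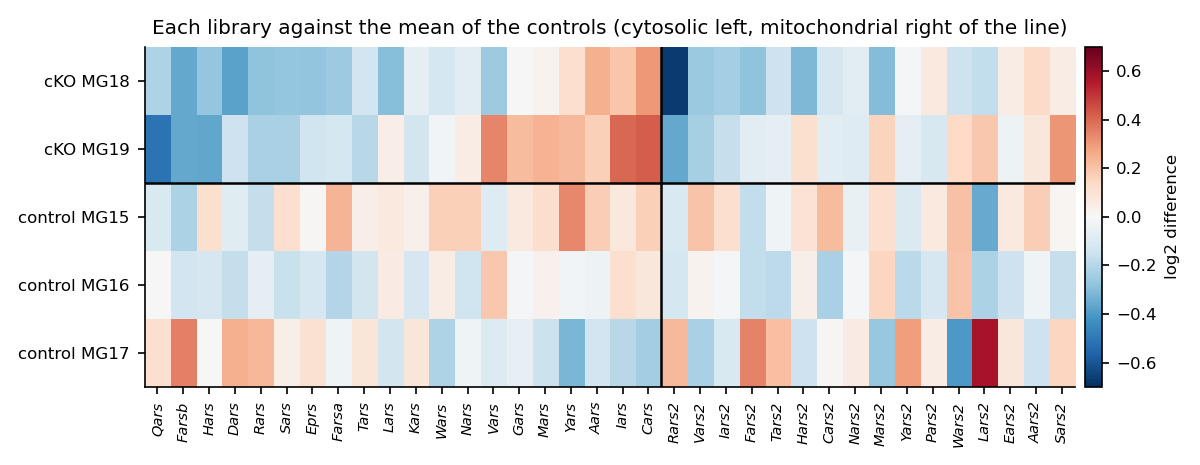
Log2 difference of each library from the mean of the 3 controls for each synthetase, with the cKO libraries in the upper rows and the controls below, cytosolic genes left and mitochondrial genes right of the line, each ordered by fold change. Median differences over the 36 genes were -0.14 in cKO MG18 and -0.07 in cKO MG19, against 0.07, -0.09 and 0.00 in controls MG15, MG16 and MG17.

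The 2 cKO libraries differed from each other. Over the 36 genes cKO MG18 was the lowest of the 5 libraries for 14 genes and the highest for 1, while cKO MG19 was the lowest for 5 and the highest for 8. Control MG17 was the highest for 14 and the lowest for 9. The summed level of the cytosolic enzymes was 927 and 982 FPKM in the cKO, against 1070, 973 and 1053 FPKM in controls, so that cKO MG19 lay inside the range of the controls. For the mitochondrial enzymes the sums were 139 and 153 FPKM, against 162, 150 and 168 FPKM, again with cKO MG19 inside that range.

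The cytosolic enzymes were then divided by whether they are counted as ATF4 targets. The 13 targets had a median log2 fold change of 0.045, with 7 above and 6 below 0 (9 and 4 after quantile normalization). Their summed level was 570 and 625 FPKM in the cKO, against 649, 581 and 579 FPKM in controls. The 7 others (Dars, Farsa, Farsb, Hars, Kars, Qars and Rars) had a median of -0.26, and all 7 lay below 0, or 6 of 7 after quantile normalization, where Kars was at 0.03. Their sums were 357.3 and 357.2 FPKM in the cKO, against 420, 391.5 and 473 FPKM in controls. At an unadjusted p under 0.05, 0 of the 13 and 0 of the 7 were called in either direction. The difference between these lists was not tested.

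Of the 5 synthetases with the C/EBP-ATF element printed above, Aars, for alanine, had 58.2 and 55.0 FPKM in the cKO, against 55.1, 47.6 and 44.6 FPKM in controls (log2 fold change 0.21, adjusted p = 0.631, limma). Yars, for tyrosine, had 38.1 and 41.1 FPKM, against 44.4, 34.7 and 28.1 FPKM (0.17, adjusted p = 0.763, limma). Tars, for threonine, had 35.3 and 33.9 FPKM, against 39.99, 35.4 and 41.1 FPKM (-0.16, adjusted p = 0.693, limma). Groups overlapped for Aars, Yars and Gars (0.11), while Iars lay above and Tars narrowly below all controls. A promoter was matched for only 8 of the 13 targets, so some of those without a printed element were not searched. Of the 8 targets without a printed element, Cars was at 0.36 and Vars at 0.045. The other 6 were Eprs, which charges both glutamate and proline tRNAs, Lars (leucine), Mars (methionine), Nars (asparagine), Wars (tryptophan) and Sars. The log2 fold changes of these 6 ran from -0.25 for Sars (adjusted p = 0.568, limma) to 0.13 for Mars (adjusted p = 0.772, limma), and Sars and Eprs lay below all controls.

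The other genes that ATF4 controls gave a different set of values. Of 25 genes (Atf4 itself and 24 listed targets that are no synthetases) 23 had a log2 fold change above 0, and the median was 0.54. At an unadjusted p under 0.05, 14 were higher and 0 lower, at the thresholds of the study 7 were higher, and at an adjusted p under 0.05, 3 rose. The groups did not overlap for 16 genes, all higher in the cKO. The shares of all genes tested that meet these rules are those given above (6.36%, 2.88%, 1.1% and 14.5%). The 3 calls at the adjusted threshold became 0 without cKO MG18 and 0 without cKO MG19, and 5 without control MG17. Several genes of this list were known to differ here before the list was written, so its direction is not independent evidence.

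Eif4ebp1, which holds back cap-dependent translation, rose to 12.1 and 10.6 FPKM in the cKO, against 2.66, 2.19 and 2.97 FPKM in controls (2.09 in log2 units, SE 0.22, adjusted p = 0.00127, limma). Chac1 rose to 3.97 and 4.70 FPKM, against 1.08, 1.196 and 1.13 FPKM (1.84, SE 0.25, adjusted p = 0.00662, limma). Trib3, a pseudokinase that binds ATF4 and dampens it, rose to 1.22 and 1.13 FPKM, against 0.0691, 0 and 0.115 FPKM (3.05, SE 0.47, adjusted p = 0.0129, limma). With controls near 0 that value rests on the pseudocount, and with 1 FPKM in place of 0.1 the log2 fold change of Trib3 was 1.035 (adjusted p = 0.00297, limma). Eif4ebp1, Chac1 and Trib3 were the 3 genes past the adjusted threshold, and for each the lowest cKO library was over 3 times the highest control. Trib3 averaged 0.061 FPKM in controls, so it passed the bound of a mean of 0.1 FPKM only through the cKO libraries. Its call is therefore not independent of that bound, and with a bound of 1 FPKM 2 genes of the list were called.

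Of the genes next in order of p, Atf5, a related transcription factor, had 18.7 and 15.2 FPKM in the cKO, against 7.82, 7.67 and 10.5 FPKM in controls (0.97, adjusted p = 0.0638, limma). Slc7a5, an importer of large neutral amino acids, had 20.8 and 22.1 FPKM, against 13.3, 12.7 and 9.15 FPKM (0.88, adjusted p = 0.0879, limma). Mthfd2, a mitochondrial enzyme of folate metabolism, had 13.9 and 13.4 FPKM, against 8.57, 6.93 and 8.32 FPKM (0.78, adjusted p = 0.101, limma). None of these passed, although their groups did not overlap. Asns, shown for its promoter, had 55.7 and 58.3 FPKM in the cKO, against 31.0, 29.3 and 42.1 FPKM in controls (0.76, adjusted p = 0.126, limma). The mRNA of Atf4, whose protein is set largely by translation, had 96.7 and 100.2 FPKM in the cKO, against 101.4, 92.2 and 99.8 FPKM in controls, and overlapped.

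Set side by side by promoter, the 8 other targets with the element (Asns, Atf3, Chac1, Nupr1, Pycr1, Slc7a11, Trib3 and Vldlr) had log2 fold changes from 0.09 to 3.05 with a median of 1.34, and 6 were higher at an unadjusted p under 0.05. The 5 synthetases with it ranged from -0.16 to 0.30 with a median of 0.17, and 0 were called at that threshold. With a pseudocount of 1 FPKM the medians were 0.60 for the 8 (0.09 to 1.32, again 6 higher) and 0.17 for the 5, with 0 called. With a bound of 1 FPKM 4 of the 8 remained, with a median of 0.48, and 2 of these were higher at that threshold. The median of the 8 was 1.45 without cKO MG18 and 1.09 without cKO MG19. Several of the other ATF4 targets were known to differ here before their list was written, so their higher median is not independent evidence. The synthetases were far more abundant than Chac1, Trib3 and Slc7a11. In controls these 5 stood at 15.0 to 88.7 FPKM, whereas Chac1, Trib3 and Slc7a11 stood at up to 1.196 FPKM. Asns, at 29.3 to 42.1 FPKM in controls, lay within the range of Yars, at 28.1 to 44.4 FPKM. Its log2 fold change was 0.76. Vldlr, also with the element, stood at 17.1 to 20.4 FPKM in controls, near Iars at 15.0 to 18.6 FPKM. The log2 fold change of Vldlr was 0.09, and its groups overlapped.

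**Figure D4:**
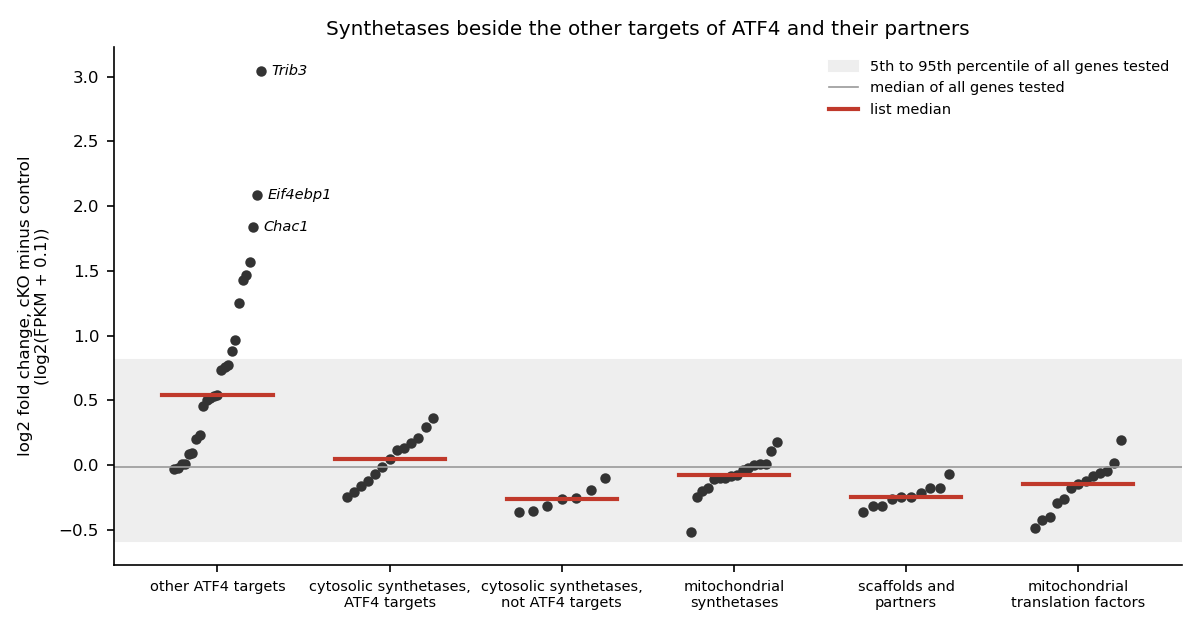
Log2 fold changes, cKO less control, in log2(FPKM + 0.1), of the genes of 6 lists, each dot a gene and each red line the median of a list; the grey band runs from the 5th to the 95th percentile of all genes tested (-0.59 to 0.81). The other ATF4 targets reach 3.05 (Trib3, 1.035 with a pseudocount of 1 FPKM), whereas every synthetase lies inside the band, from -0.51 to 0.36.

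For each amino acid served by separate genes, the cytosolic enzyme was also set against its mitochondrial counterpart within each library, which cancels differences in scaling between libraries. There were 17 such pairs over 16 amino acids. The cytosolic mRNA was the more abundant in every library for 15 pairs, and the exceptions were cysteine and isoleucine. The ratio of Cars to Cars2 was 1.38 and 1.46 in the cKO, against 0.987, 1.27 and 0.860 in controls. The ratio of Iars to Iars2 was 1.23 and 1.34, against 0.882, 0.991 and 0.857. Both ratios were above 1 in both cKO libraries, and all 3 controls were below 1 only for isoleucine. The ratio of Sars to Sars2 lay the other way, at 18.6 and 16.01 in the cKO, against 25.03, 23.4 and 21.5 in controls. The widest ratios belonged to leucine, with 29.97 and 29.1 in the cKO, against 44.4, 39.9 and 19.4 in controls. Over all 17 pairs the log2 ratio was higher in the cKO for 8 and lower for 9, with a median difference of -0.01. These ratios were not tested.

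**Figure D5:**
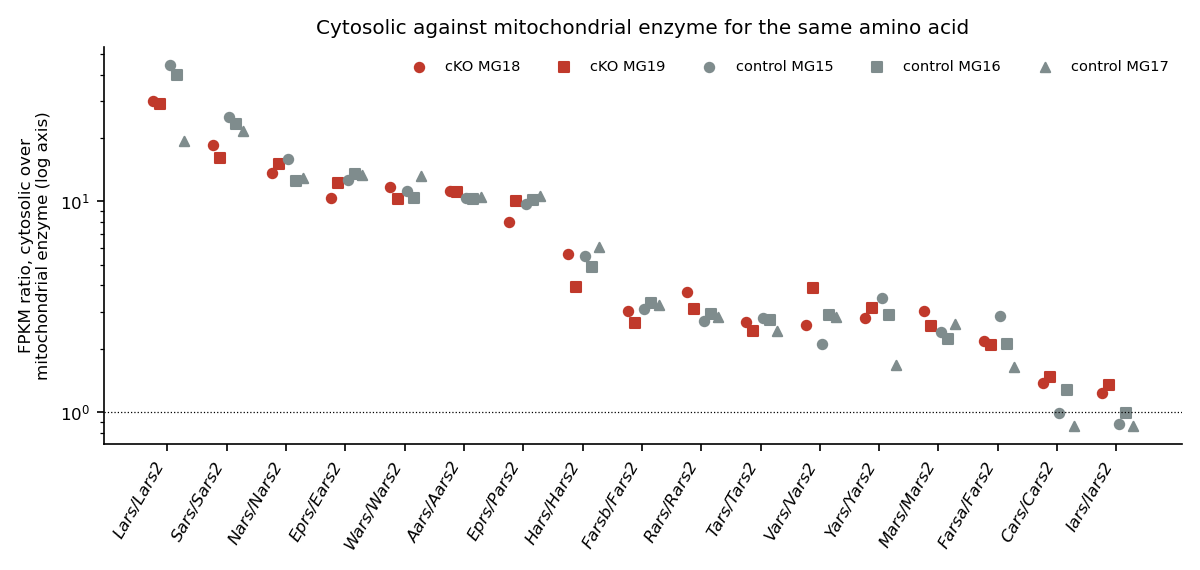
Ratio of the FPKM of the cytosolic enzyme to that of the mitochondrial enzyme for the same amino acid, in each library on a log axis; red marks are the 2 cKO libraries, grey marks the 3 controls, and the dotted line is a ratio of 1. Ratios ran from below 1 for cysteine and isoleucine in controls to 44.4 for leucine in control MG15.

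The multisynthetase complex holds 8 of the cytosolic enzymes listed, bound by the scaffolds Aimp1, Aimp2 and Eef1e1. Its 8 enzymes (Dars, Eprs, Iars, Kars, Lars, Mars, Qars and Rars) had a median log2 fold change of -0.17, with 2 above and 6 below 0 (3 and 5 after quantile normalization), and the 12 outside it a median of -0.04 (0.03 after quantile normalization). The synthetases also fall into 2 structural classes, which differ in the fold of the catalytic domain. The 19 of class I had a median of -0.07 and the 17 of class II a median of -0.10. Eprs, which charges both glutamate and proline tRNAs, was counted only in class I. In each of these 4 lists limma called 0 genes at the adjusted threshold, and Rars2, of class I, was the only call at an unadjusted p under 0.05.

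The scaffolds and partners gave 0 calls among 10 genes at an unadjusted p under 0.05, with all 10 below 0 (9 of 10 after quantile normalization or a correction for transcript length, where Eef1g was above 0), a median of -0.25 and 7 below all controls (16.3% of all genes). After quantile normalization Eef1a1 was called lower at -0.66 (unadjusted p = 0.00721, adjusted p = 0.224, limma), against -0.25 in the main fit. Aimp1 had 74.6 and 75.5 FPKM in the cKO, against 93.6, 85.7 and 102 FPKM in controls (log2 fold change -0.32, adjusted p = 0.467, limma). Aimp2 had 41.2 and 37.3 FPKM, against 44.3, 43.4 and 61.0 FPKM (-0.32, adjusted p = 0.543, limma). Both lay below all controls, whereas Eef1e1 overlapped, at 101.3 and 92.6 FPKM in the cKO, against 104 and 94.9 and 145 FPKM in controls. Dtd1, which removes D-amino acids from tRNAs, had 23.1 and 18.4 FPKM, against 30.4, 24.7 and 24.7 FPKM (-0.36, adjusted p = 0.473, limma). Aarsd1, an editing protein for alanine tRNAs, had 34.1 and 33.9 FPKM, against 43.7, 38.9 and 39.0 FPKM, and Eef1d, a subunit of the factor that recharges eEF1A with GTP, had 37.9 and 35.4 FPKM, against 45.9, 39.0 and 47.2 FPKM. None of the 10 passed the adjusted threshold.

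On the mitochondrial side, 13 factors of translation and tRNA modification had a median log2 fold change of -0.15, with 11 below 0 (9 after the correction for transcript length) and 3 below all controls (16.3% of all genes). By limma 0 passed an adjusted p of 0.05, and the unadjusted threshold of 0.05 called 1 gene, which was lower (5.17% of all genes). Gfm2, which recycles mitochondrial ribosomes, had 7.84 and 9.59 FPKM in the cKO, against 11.5, 11.7 and 11.7 FPKM in controls (log2 fold change -0.42, unadjusted p = 0.0388, adjusted p = 0.404, limma). Its unadjusted p by limma was 0.173 without cKO MG18, 0.0843 without control MG15, 0.0880 without control MG16 and 0.0508 without the mean trend, so that the call was lost in each of these. Mrrf, the recycling factor that works with it, had 11.99 and 11.7 FPKM, against 14.3, 14.3 and 18.8 FPKM (-0.40, adjusted p = 0.443, limma). For both, the cKO libraries lay below all controls. The initiation factors Mtif2 (12.5 and 19.0 FPKM in the cKO, against 23.6, 25.6 and 16.7 FPKM) and Mtif3 (5.81 and 4.27 FPKM, against 5.80, 5.59 and 7.14 FPKM) overlapped. Mitochondria make glutaminyl-tRNA by amidation rather than with an enzyme like Qars, and 2 subunits of the amidotransferase also overlapped: Qrsl1 had 7.10 and 8.71 FPKM in the cKO, against 8.32, 9.01 and 11.3 FPKM, and Gatc had 17.0 and 11.2 FPKM, against 12.5, 11.5 and 12.1 FPKM.

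In the GENCODE M21 annotation 10 of the 36 genes overlapped another gene that was tested: Aars, Cars2, Ears2, Fars2, Hars, Hars2, Iars2, Mars, Wars and Yars. Hars and Hars2 share 198 bases on opposite strands, and Mars shares 68 bases with Ddit3, an ATF4 target. Iars2 shares 2034 bases with Rab3gap2 on the opposite strand, and Aars 1326 bases with Exosc6 on the same strand. The kit kept strand, but whether the FPKM used it is not given in the sources used here, so values of these genes are less certain. Reads that mapped to several places were removed, which also lowers the certainty for any synthetase with a close copy elsewhere in the genome.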

How the data were processed

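Total RNA of whole E16 cortices was depleted of ribosomal RNA and sequenced as 5 strand-specific libraries, 2 cKO and 3 control. The authors deposited FPKM values per gene and library, made by aligning read pairs with TopHat2 (genome build mm10), keeping proper pairs with 1 good alignment, dropping duplicates, and running Cuffdiff and cummeRbund. For tool versions and the gene annotation, nothing is given in the sources used here. Counts were not part of the table.

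From these, log2(FPKM + 0.1) was fitted with limma 3.58.1 (prior degrees of freedom 6.24, with a mean trend), with no covariate, for 14697 genes that averaged 0.1 FPKM or more. Of 1234 names of small RNAs, 58 passed that bound and were left out. P-values were adjusted after Benjamini and Hochberg. Lists were described by counts and medians with no test of their own. Names were matched to RefSeq (GRCm38.p6), 22500 by symbol and 1340 by a synonym, and 157 were not matched. The fit ran in R 4.3.3, and tables and plots were made in Python 3.11.15 with matplotlib 3.10.9, pandas 2.3.3 and numpy 2.4.6.

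The members, the other lists and the tests were chosen with earlier results of these data known. Values in every library are given for the members past an adjusted p of 0.05, for the 8 with the lowest p and the 3 most and 3 least abundant of each compartment, and for up to 6 genes of each list that holds no member. Genes named for a promoter, for a group that does not overlap or as a partner subunit, and Atf4, were added after their values were seen. Alternatives changed the pseudocount, the bound on low values, the scaling (median ratio, quantile, a loess trend with transcript length), the trend, and the libraries used.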

Additional observations from a re-analysis of the deposited data

How the results depend on the processing

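With 2 cKO libraries and no counts, the p-values measure only the spread between these 5 libraries. Over the 12 alternatives, 5 of which leave out a library, the fold changes of the 36 synthetases gave 0 calls at an adjusted p under 0.05 (lowest 0.362, limma), and 22 of 36 kept their sign in all 12. The median of the cytosolic enzymes was -0.015 after quantile normalization, against -0.112, and -0.174 to -0.071 when a library was left out. That of the mitochondrial enzymes was -0.144 to -0.031. After correction for a trend with transcript length 1 synthetase was higher at an unadjusted p under 0.05 (Cars, log2 fold change 0.399), and 6 other ATF4 targets were called at the adjusted threshold, against 3. With a pseudocount of 1 FPKM and with no bound on low values 2 synthetases were lower, against 1, and leaving out a library gave 0 to 1. Leaving out a library gave 0 to 5 calls of other ATF4 targets at the adjusted threshold and 11 to 14 at an unadjusted p under 0.05. The counts for the other ATF4 targets were tried under these settings after seeing the data. The causes of these shifts were not tested. A fit that leaves out a library also rests on fewer libraries. No paired analysis was possible because the labels give no number that pairs libraries across groups.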
